A study of Mus musculus with 12 samples.

Results

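The MS4A (membrane-spanning 4A) genes are a family of membrane proteins, and 9 of them are described here across sorted myeloid cells of the mouse bone marrow: Ms4a3, Ms4a4a, Ms4a4b, Ms4a4c, Ms4a6b, Ms4a6c, Ms4a6d, Ms4a7 and Ms4a8a. The members were chosen by symbol and matched to the Ensembl rows of the deposited gene tables, where all 9 were found among 56953 listed genes. The tables hold 21 genes with an MS4A symbol in all. The study compared macrophages of embryonic and of adult origin, and set both beside monocytes of the same marrow. All 12 libraries came from 8-week-old female C57BL/6J mice of the genotype Rank cre/+;R26.eYFP fl/+, in which Cre is made from the Rank gene and turns on a silent eYFP reporter, so that all 4 groups carry the same alleles and differ in the sorted cells. The groups were eYFP+ macrophages (labelled embryonic), eYFP- macrophages (labelled adult), Ly6Chi monocytes and Ly6Clo monocytes, with 3 libraries each. Per the study's methods the macrophages were sorted as F4/80hi, CD206+ and VCAM1+ cells, and Rank-Cre acts as a marker of embryonic macrophages, so the eYFP label reports past Rank-Cre activity rather than origin itself.

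MS4A proteins cross the membrane several times and form complexes with receptors on the same cell. The best known are Ms4a1, which encodes the B cell antigen CD20, and Ms4a2, the beta chain of the high-affinity IgE receptor of mast cells and basophils. Most of the other members are genes of myeloid cells: Ms4a3 marks granulocyte-monocyte progenitors, Ms4a4a has been described as a partner of the beta-glucan receptor dectin-1 (Clec7a), Ms4a7 is a gene of tissue macrophages, and Ms4a4b was described first in T cells.

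In the RefSeq annotation (GRCm38.p6), 21 family genes lie on chromosome 19 in the order Ms4a10, Ms4a15, Ms4a18, Ms4a8a, Ms4a20, Ms4a19, Ms4a13, Ms4a12, Ms4a1, Ms4a5, Ms4a14, Ms4a7, Ms4a4a, Ms4a4c, Ms4a4b, Ms4a6c, Ms4a6b, Ms4a4d, Ms4a6d, Ms4a2 and Ms4a3. Between the outer genes of this cluster, 1 protein-coding gene of another name is annotated, Gm8369. The deposited tables were made on another build, GRCm39, and hold no gene coordinates, so only the order is given. The members include close copies. Over the coding sequence of the longest GENCODE M21 coding transcript, Ms4a4b and Ms4a4c were 91.7% identical, Ms4a6b and Ms4a6c 86.4%, Ms4a6b and Ms4a6d 81.8%, and Ms4a6c and Ms4a6d 79.6%. The next pair, Ms4a4a and Ms4a4b, shared 69.9%. Windows of 50 bases that also occur in another family transcript made up 8.48% of the longest Ms4a4c transcript, 6.08% of Ms4a6c, 4.19% of Ms4a4b, 3.14% of Ms4a6b and 2.92% of Ms4a6d. The other 4 members shared none. Counts of the 5 genes with shared windows are less certain, since read pairs that fit several genes were dropped by the authors.

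The similarity of the close copies extended into the sequence before their start sites. The 4 windows below show this for both pairs; each was read from RefSeq (GRCm38.p6, plus strand, 5′ to 3′) as the 250 bases before the annotated start, less any bases in an annotated exon, and capitals mark the longest run that the pair had in common.
Ms4a4c (chr19:11407411-11407660): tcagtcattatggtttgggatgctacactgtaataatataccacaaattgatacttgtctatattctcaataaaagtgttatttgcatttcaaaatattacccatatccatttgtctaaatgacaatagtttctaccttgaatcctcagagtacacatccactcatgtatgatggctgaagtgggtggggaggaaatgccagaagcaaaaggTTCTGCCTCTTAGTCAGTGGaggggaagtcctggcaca
Ms4a4b (chr19:11443308-11443552): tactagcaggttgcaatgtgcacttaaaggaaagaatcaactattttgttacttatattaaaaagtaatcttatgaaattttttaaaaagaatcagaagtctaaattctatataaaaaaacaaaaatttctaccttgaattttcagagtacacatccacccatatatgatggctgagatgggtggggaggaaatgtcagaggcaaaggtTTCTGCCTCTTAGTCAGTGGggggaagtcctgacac
Ms4a6c (chr19:11469118-11469365): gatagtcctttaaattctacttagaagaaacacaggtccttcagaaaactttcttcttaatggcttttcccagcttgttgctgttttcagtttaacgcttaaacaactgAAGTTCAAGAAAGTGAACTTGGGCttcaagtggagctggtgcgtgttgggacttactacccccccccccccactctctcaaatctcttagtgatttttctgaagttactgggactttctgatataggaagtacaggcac
Ms4a6b (chr19:11518309-11518452): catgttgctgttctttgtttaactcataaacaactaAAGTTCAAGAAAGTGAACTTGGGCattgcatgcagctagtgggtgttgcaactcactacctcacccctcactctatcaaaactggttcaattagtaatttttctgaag
The common run was 20 bases long in Ms4a4c and Ms4a4b and 24 bases long in Ms4a6c and Ms4a6b. Aligned over the full 250 bases before each start, annotated exon bases included, the first pair was 78.9% identical over 232 bases and the second 85.1% over 175 bases. Motifs were searched in the same full windows. The letters GAGGAA, the core bound by the myeloid factor PU.1, stood in the windows of Ms4a4c and Ms4a4b at the same place relative to the common run, and in no other of the 9 member windows that RefSeq gave (2 for Ms4a7, none for Ms4a6d). Searched on both strands, these letters occurred in 23.3% of 32851 windows of all genes. The MAF half-site TGCTGA stood in the windows of Ms4a8a, Ms4a4a and Ms4a3 (3 of 9, against 16.1% of all windows). Of the 9 member windows, 6 held an E-box, CANNTG, where 66.2% of all windows did, and Ms4a4b alone held the TATA box letters TATAAA (12.4% of all windows). The C/EBP site TTGCNNAA (9.56% of all windows), the paired half-sites of IRF factors (2.98%) and the NR4A response element AAAGGTCA (1.34%) were in none of them. The E-box letters lie across part of the MAF letters in Ms4a8a and Ms4a3. These are matches of letters and not sites of binding.

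Total counts ran from 26390927 to 48618187 read pairs per library, and every member had counts in each group. The marker genes of the sorted cells followed the labels: 8 of 8 macrophage genes were higher in macrophages than in monocytes, all 5 tested genes of Ly6Chi monocytes were higher in Ly6Chi than in Ly6Clo monocytes, and 5 of 6 genes of Ly6Clo monocytes were higher in Ly6Clo than in Ly6Chi monocytes. Of 7 neutrophil genes, all 7 were lower in macrophages than in monocytes and 2 were lower in eYFP+ than in eYFP- macrophages (Ngp and Camp, with overlap of the libraries), and of 5 B cell genes 1 was higher in macrophages than in monocytes (Cd79b). The summed normalised counts of the neutrophil genes were 25673 in eYFP- replicate 2, against 901 and 1251 in the other eYFP- libraries and 1017 to 2438 in eYFP+ macrophages. In monocytes the same sum was 211148 to 313594 (Ly6Chi) and 121912 to 230816 (Ly6Clo). Ly6Clo replicate 2 stood apart in the number of genes found: it had counts in 16434 genes, where the other 11 libraries had counts in 21330 to 27634. Its counts, relative to the other libraries, rose as the GC content of a gene fell: at the GC content of the members (37.2% to 47.0%) its values lay above the mean of all libraries by 0.122 (Ms4a8a) to 0.585 (Ms4a4b) on the log2 scale of a fitted GC curve. The next highest was eYFP+ replicate 1, at 0.0983 to 0.314, and no other library exceeded 0.0970. Where leaving out Ly6Clo replicate 2 changed the call of a member or moved a called difference by over 1.5 times, the value without it is given as well. In bulk RNA, fewer cells of a kind and less RNA per cell cannot be told apart. Levels below are TPM values, which are scaled by gene length and library and so allow genes to be compared, and fold changes are log2 differences of counts with their standard errors (SE) from 1 DESeq2 fit over the 12 libraries; a gene counts as changed at a Benjamini-Hochberg adjusted p under 0.05 over all genes tested.

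**Figure D1:**
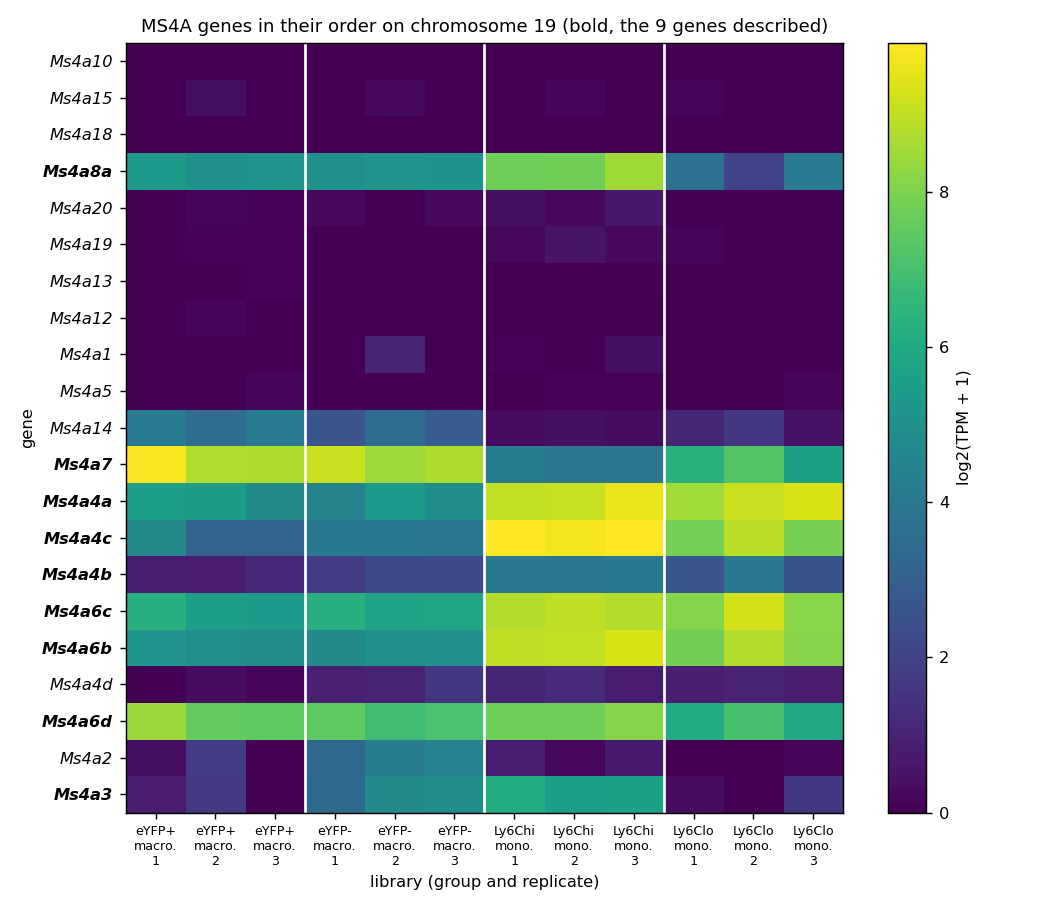
Heat map of log2(TPM + 1) for the 21 MS4A genes of chromosome 19 (rows, in RefSeq order, members in bold) in the 12 libraries (columns, by group and replicate). Ms4a7 and Ms4a14 are bright in macrophages, the 5 genes from Ms4a4a to Ms4a6b are brighter in monocytes, and Ms4a2 and Ms4a3 differ between libraries of the same cell type.

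Macrophages and monocytes expressed members of the family at different levels. Ms4a7 was higher in macrophages, while Ms4a4a, Ms4a4c, Ms4a4b, Ms4a6c and Ms4a6b, which are neighbours in the cluster, were lower there, by 7.07-fold (Ms4a4b) to 40.6-fold (Ms4a4c). Ms4a3, Ms4a6d and Ms4a8a did not pass the test. In all, 6 of 9 members were called, 1 higher and 5 lower, where 36% of all genes tested were called. The libraries of the 2 cell types did not overlap for the same 6 members, and for 18% of all genes. The median log2 difference was -2.82 over the members and 0.08 over all genes tested.

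Ms4a7 was the leading member of the macrophages. Its level was 876, 427 and 411 TPM in eYFP+ macrophages and 561, 349 and 412 TPM in eYFP- macrophages. It was 16.7, 14.3 and 14.2 TPM in Ly6Chi and 82.4, 152 and 49.4 TPM in Ly6Clo monocytes. Every macrophage library lay above every monocyte library, and every Ly6Clo library above every Ly6Chi library. The log2 difference between macrophages and monocytes was 3.66 ± 0.36, adjusted p = 3.0e-23. Both macrophage groups exceeded Ly6Clo monocytes, by 2.54 ± 0.50, adjusted p = 5.7e-06 (eYFP+) and 2.11 ± 0.50, adjusted p = 2.5e-04 (eYFP-). They exceeded Ly6Chi monocytes by 5.20 ± 0.50 and 4.77 ± 0.50. Within monocytes Ms4a7 was the 1 member called lower in Ly6Chi cells, 6.35-fold, with a log2 difference of -2.67 ± 0.50, adjusted p = 7.9e-06. Without Ly6Clo replicate 2, the highest of its group, that difference was -2.07 with an adjusted p of 9.0e-05. The order of levels was thus both macrophage groups, then Ly6Clo, then Ly6Chi monocytes, and the macrophage groups overlapped. Between them the difference was 0.43 ± 0.50, adjusted p = 1.0, and its 95% interval ran from -0.56 to 1.41.

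**Figure D2:**
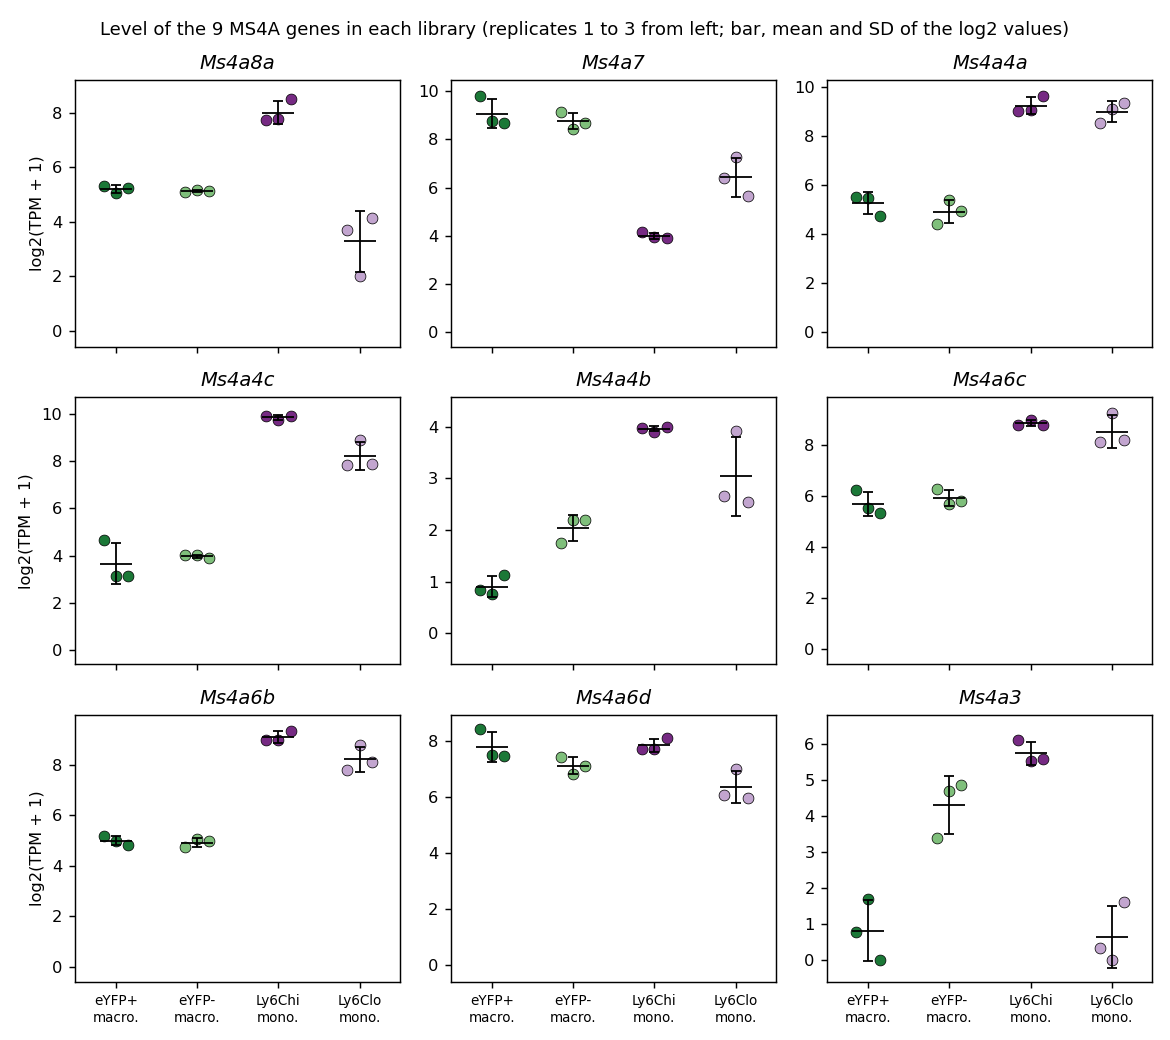
Level of each member as log2(TPM + 1) in the 4 groups (points, the 3 libraries of a group in the order of their replicate numbers; bar and whiskers, mean and SD of the log2 values). Ms4a7 is highest in both macrophage groups, Ms4a8a in Ly6Chi monocytes, and Ms4a3 in Ly6Chi monocytes and eYFP- macrophages.

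The 5 neighbouring genes of the Ms4a4 and Ms4a6 subgroups made up the monocyte side of the family. Ms4a4c had the largest difference. It was at 946, 849.9 and 966 TPM in Ly6Chi and 228, 479 and 235 TPM in Ly6Clo monocytes, against 24.2, 7.87 and 7.90 TPM in eYFP+ and 15.1, 15.1 and 13.9 TPM in eYFP- macrophages. All 6 monocyte libraries lay above all 6 macrophage libraries, and the log2 difference of macrophages from monocytes was -5.34 ± 0.37, adjusted p = 2.9e-46. Its close copy Ms4a4b had the lowest level of the 5: 14.8, 14.0 and 14.9 TPM in Ly6Chi and 5.30, 14.2 and 4.82 TPM in Ly6Clo monocytes. In macrophages it was at 0.781, 0.687 and 1.19 TPM (eYFP+) and 2.38, 3.59 and 3.55 TPM (eYFP-). The log2 difference between the cell types was -2.82 ± 0.32, adjusted p = 3.4e-17.

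Ms4a4a, the dectin-1 partner, was at 513, 535 and 797 TPM in Ly6Chi and 369, 554 and 653 TPM in Ly6Clo monocytes. It was at 45.3, 44.1 and 25.7 TPM in eYFP+ and 20.6, 40.6 and 30.02 TPM in eYFP- macrophages. The cell types were far apart (-4.17 ± 0.28, adjusted p = 6.1e-49), and both monocyte groups overlapped, as did both macrophage groups. Clec7a, the receptor itself, was also lower in macrophages, with a log2 difference of -1.30 ± 0.29, adjusted p = 3.2e-05. Ms4a6b was at 502, 508 and 659 TPM in Ly6Chi and 222, 437 and 279 TPM in Ly6Clo monocytes. In macrophages it was at 35.2, 30.3 and 27.4 TPM (eYFP+) and 25.5, 32.3 and 30.3 TPM (eYFP-). Its close copy Ms4a6c was at 440.0, 499 and 439 TPM in Ly6Chi monocytes and 277, 612 and 287 TPM in Ly6Clo monocytes, against 73.6, 45.0 and 39.1 TPM in eYFP+ and 76.1, 50.8 and 54.8 TPM in eYFP- macrophages. For both genes the monocyte libraries lay above all macrophage libraries, and the macrophage groups overlapped. Their log2 differences between macrophages and monocytes were -3.90 ± 0.24, adjusted p = 2.0e-57 and -2.99 ± 0.32, adjusted p = 9.0e-20, respectively. All 5 genes were lower in each macrophage group than in each monocyte group, in comparisons in which 28.7% (eYFP+ against Ly6Chi), 26.1% (eYFP+ against Ly6Clo), 25.5% (eYFP- against Ly6Chi) and 26.8% (eYFP- against Ly6Clo) of all genes tested were called. Ms4a4a was lower than in Ly6Chi and Ly6Clo monocytes by log2 differences of -4.07 and -3.85 in eYFP+ macrophages and of -4.48 and -4.27 in eYFP- macrophages. For Ms4a4c the same values were -6.13 and -4.60 (eYFP+) and -6.09 and -4.55 (eYFP-), and for eYFP+ macrophages they came to -7.02 and -5.49 without eYFP+ replicate 1. For Ms4a4b the same values were -4.13 and -3.31 (eYFP+) and -2.33 and -1.51 (eYFP-). For Ms4a6c the same values were -3.18 and -2.97 (eYFP+) and -3.02 and -2.81 (eYFP-). For Ms4a6b the same values were -4.24 and -3.42 (eYFP+) and -4.37 and -3.55 (eYFP-). The smallest of these 20 differences was that of Ms4a4b between eYFP- macrophages and Ly6Clo monocytes (-1.51 ± 0.45, adjusted p = 0.0049), which came to -0.81 (adjusted p = 0.012) without Ly6Clo replicate 2. The call for eYFP- macrophages was lost with the libraries of the comparison alone (-1.5, adjusted p = 0.055) and under limma on log2(TPM + 0.1) (-1.17, adjusted p = 0.053) or on log2(TPM + 1) without a filter (-0.99, adjusted p = 0.103). For eYFP+ macrophages the difference of Ms4a4b from Ly6Clo monocytes came to -2.61 (adjusted p = 3.4e-19) without Ly6Clo replicate 2.

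**Figure D3:**
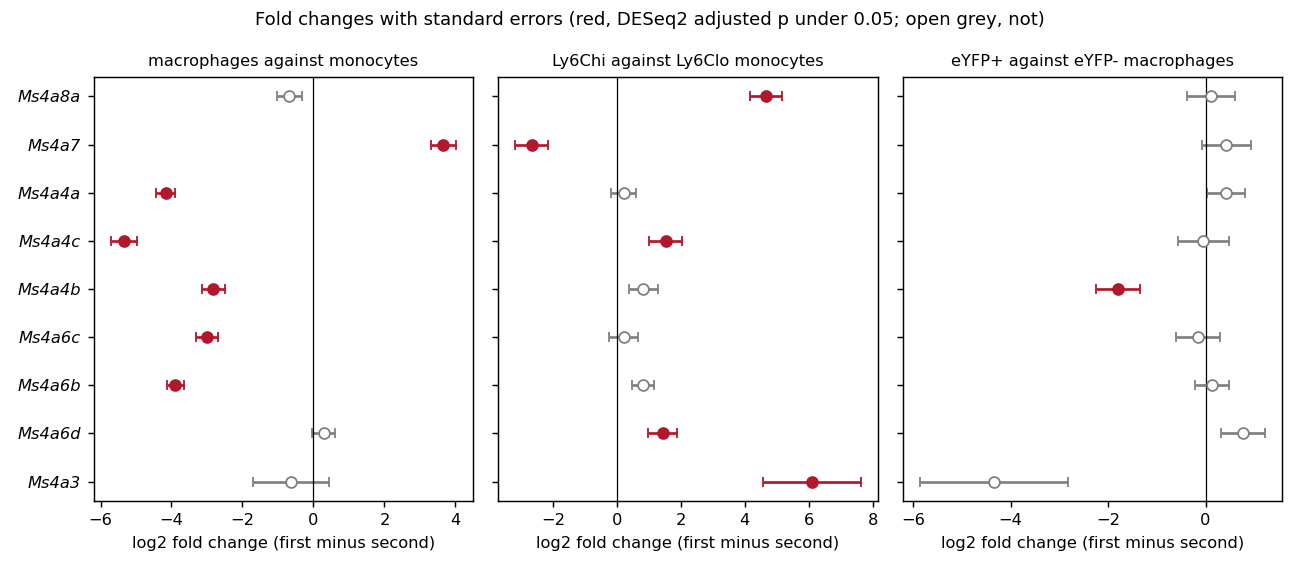
Log2 fold changes of the 9 members (points) with standard errors (whiskers) for macrophages minus monocytes, Ly6Chi minus Ly6Clo monocytes and eYFP+ minus eYFP- macrophages; red points passed the adjusted p of 0.05. The members spread from -5.34 to 3.66 in the first comparison, and only Ms4a4b is red in the last.

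Ly6Chi and Ly6Clo monocytes also differed in their MS4A genes. Ms4a8a and Ms4a3 were higher in Ly6Chi monocytes by 25.4-fold and 68.6-fold, Ms4a4c and Ms4a6d by 2.89-fold and 2.69-fold, and Ms4a7 was lower. Of the 9 members, 5 were called (4 higher, 1 lower), where 8.82% of all genes tested were called. The 3 libraries of each group did not overlap for 6 members, the 5 called ones and Ms4a6b, and for 28.3% of all genes. The median log2 difference was 0.82 over the members and 0.01 over all genes tested.

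Ms4a8a, a gene described in alternatively activated macrophages, was at 212, 219.7 and 359 TPM in Ly6Chi monocytes and at 11.9, 3.01 and 16.6 TPM in Ly6Clo monocytes, its lowest group. Both macrophage groups lay between them and close to each other, at 39.0, 32 and 36.3 TPM (eYFP+) and 33, 34.7 and 34.3 TPM (eYFP-). None of the 3 levels overlapped. The log2 difference was 4.67 ± 0.49, adjusted p = 1.4e-18 between the monocyte groups. Macrophages were lower than Ly6Chi monocytes by 7.76-fold (eYFP+, adjusted p = 2.8e-08) and 8.41-fold (eYFP-, adjusted p = 8.6e-09), and higher than Ly6Clo monocytes by 1.71 ± 0.49, adjusted p = 0.0034 and 1.60 ± 0.49, adjusted p = 0.0071. For eYFP- macrophages this call was lost with the libraries of that comparison alone (1.60, adjusted p = 0.06). Averaged over both groups of each cell type, the log2 difference of macrophages from monocytes was -0.68 ± 0.35, adjusted p = 0.119. Ly6Clo replicate 2 had the lowest Ms4a8a of all libraries; without it the monocyte groups differed by 4.25, and the comparison of macrophages with monocytes became -0.94 with an adjusted p of 5.5e-05.

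Ms4a6d was lower in Ly6Clo than in Ly6Chi monocytes, and lower in Ly6Clo monocytes than in eYFP+ macrophages. Its level was 341, 183 and 175 TPM in eYFP+ macrophages, 174, 113 and 137 TPM in eYFP- macrophages, 212, 209 and 276 TPM in Ly6Chi monocytes and 65.8, 128 and 62.4 TPM in Ly6Clo monocytes. The libraries of Ly6Clo monocytes overlapped those of eYFP- macrophages and lay below those of the other groups. The log2 difference was 1.43 ± 0.45, adjusted p = 0.023, of Ly6Chi from Ly6Clo monocytes, and 1.38 ± 0.45, adjusted p = 0.011, of eYFP+ macrophages from Ly6Clo monocytes. For eYFP- macrophages it was 0.61 ± 0.45, adjusted p = 0.343, and 1.04 with an adjusted p of 0.037 without Ly6Clo replicate 2. The call for eYFP+ macrophages was lost without eYFP+ replicate 1 (0.90, adjusted p = 0.128), without Ly6Clo replicate 1 (1.19, adjusted p = 0.061) or replicate 3 (1.19, adjusted p = 0.069), and with the libraries of that comparison alone (1.40, adjusted p = 0.079). Against Ly6Chi monocytes the difference was -0.04 ± 0.45 in eYFP+ and -0.82 ± 0.45 in eYFP- macrophages, with adjusted p-values of 0.963 and 0.189 in the same DESeq2 fit. Every eYFP- library nevertheless lay below every Ly6Chi library, and this difference was called with the libraries of that comparison alone (-0.87, adjusted p = 0.0062) and without Ly6Clo replicate 2 and eYFP+ replicate 1 together (-0.85, adjusted p = 0.0022). Macrophages against monocytes gave 0.28 ± 0.32, adjusted p = 0.538, with a 95% interval from -0.34 to 0.91.

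The calls of Ms4a4c and Ms4a6d between the monocyte groups were the weaker ones. Both were lost when any single monocyte library other than Ly6Clo replicate 2 was left out, while Ms4a8a, Ms4a7 and Ms4a3 were called each time. The call of Ms4a4c was lost as well without any single eYFP- macrophage library (adjusted p = 0.054 to 0.065), without independent filtering (adjusted p = 0.077) and under limma without a filter on low values (adjusted p = 0.071). Ms4a4c differed by 1.53 ± 0.52, adjusted p = 0.038, and by 2.03 (adjusted p = 5.9e-04) without Ly6Clo replicate 2, which was the highest Ly6Clo library for it and for Ms4a4b, Ms4a6b, Ms4a6c and Ms4a6d. With edgeR's quasi-likelihood test the adjusted p was 0.091 for Ms4a4c and 0.059 for Ms4a6d. Ms4a6b and Ms4a4b did not pass in the full set (0.82 ± 0.34, adjusted p = 0.119 and 0.82 ± 0.45, adjusted p = 0.284). Without Ly6Clo replicate 2 both were called, at 1.19 (adjusted p = 3.0e-04) and 1.57 (adjusted p = 2.5e-07), where 9.43% of all genes were called. Correcting each library for GC content likewise brought both past the threshold. Ms4a4a and Ms4a6c gave 0.22 (95% interval -0.55 to 0.99) and 0.21 (-0.67 to 1.09) between the monocyte groups.

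Between macrophages of embryonic and adult origin, Ms4a4b differed, and Ms4a3 differed in level without passing the test. Ms4a4b was the only member called between eYFP+ and eYFP- macrophages, 1 of 9, where 2.07% of all genes tested were called and 1.92% were called lower in eYFP+ cells. The libraries of the groups did not overlap for 2 members, Ms4a4b and Ms4a3, and for 15.3% of all genes. The median log2 difference was 0.12 over the members and 0.05 over all genes tested. Ms4a4b was 3.48-fold lower in eYFP+ macrophages (-1.80 ± 0.46, adjusted p = 0.0076), at the low level of the TPM values given above. Its normalised counts were 80.3, 62.0 and 103 in eYFP+ and 236, 295 and 324 in eYFP- macrophages. With edgeR's quasi-likelihood test the adjusted p was 0.102, and it was above 0.05 also without eYFP+ replicate 2 or eYFP- replicate 3 and in all 3 limma fits (0.148 on log2(TPM + 1), 0.078 on log2(TPM + 0.1) and 0.302 without a filter on low values). Without eYFP- replicate 2, the library with most neutrophil counts among the macrophages, it was 0.038. Beside this, the summed normalised counts of 9 T and NK cell genes were 331 to 715 over the eYFP+ libraries and 1498 to 3094 over the eYFP- libraries. In monocytes the sum was 567 to 986 (Ly6Chi) and 480.4 to 685 (Ly6Clo). Of these 9 genes 1 passed the test of origin, Nkg7, at -3.36 ± 0.35, adjusted p = 4.2e-18. The log2 differences of the others, none of which passed, were -0.42 (Cd3d), 1.15 (Cd3e), -1.05 (Cd3g), -1.44 (Cd2), -1.48 (Il2rb), -1.92 (Ncr1), -2.06 (Klrb1c) and -2.43 (Gzma), so that 8 of the 9 lay below 0. The libraries did not overlap for 5 of them, Cd2, Ncr1, Klrb1c, Gzma and Nkg7. Ccr2, a chemokine receptor gene of Ly6Chi monocytes, was called lower in eYFP+ macrophages (-1.80 ± 0.43, adjusted p = 0.0027). The summed normalised counts of the marker genes of Ly6Chi monocytes were 476 to 622 in eYFP+ and 932 to 4421 in eYFP- macrophages, against 413262 to 448597 in Ly6Chi monocytes. The part of T and NK cells or of monocytes in the Ms4a4b result was not tested.

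For the other members the libraries of eYFP+ and eYFP- macrophages overlapped. The origin test of Ms4a4c gave -0.05 ± 0.52, adjusted p = 1.0, with eYFP+ replicate 1 the highest of the 6 macrophage libraries for this gene. Without that library the difference was -0.94 (adjusted p = 0.373), and with Ly6Clo replicate 2 left out as well, a fit chosen after seeing the data, Ms4a4c was called lower in eYFP+ cells, at -0.95 with an adjusted p of 2.3e-05. Ms4a6d had a difference of 0.77 ± 0.45, adjusted p = 0.715, with a 95% interval from -0.11 to 1.66. The differences of Ms4a4a and Ms4a6b were 0.42 (95% interval -0.35 to 1.19) and 0.13 (-0.53 to 0.80). Those of Ms4a6c and Ms4a8a were -0.16 (-1.04 to 0.72) and 0.12 (-0.85 to 1.08).

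Ms4a3, the progenitor gene, had the widest difference between the macrophage groups, but it missed the threshold. It was at 0.706, 2.24 and 0 TPM in eYFP+ macrophages and at 9.46, 24.9 and 28.2 TPM in eYFP- macrophages, without overlap. It was at 67.9, 44.9 and 47.4 TPM in Ly6Chi monocytes, all above the macrophages, and at 0.259, 0 and 2.08 TPM in Ly6Clo monocytes. Ly6Clo replicate 2 and eYFP+ replicate 3 had no count of it, which allows up to 3 counts in each of them. The test of origin gave -4.34 ± 1.51, adjusted p = 0.134, with an adjusted p of 0.015 in the fit without Ly6Clo replicate 2, where 4.28% of all genes were called. Leaving out 1 library moved this difference between -5.70 (without eYFP+ replicate 2) and -3.75 (without eYFP+ replicate 3). The monocyte groups differed by 6.10 ± 1.52, adjusted p = 0.0017, with a range from 5.53 (without Ly6Clo replicate 2) to 8.66 (without Ly6Clo replicate 3) when 1 library was left out. eYFP- macrophages were higher than Ly6Clo monocytes by 4.59 ± 1.52, adjusted p = 0.013, a call that was lost without eYFP- replicate 2 (4.52, adjusted p = 0.057), eYFP- replicate 3 (4.29, adjusted p = 0.081) or Ly6Clo replicate 1 (4.16, adjusted p = 0.061). Leaving out 1 library moved this difference between 3.97 and 7.14. eYFP+ macrophages were lower than Ly6Chi monocytes, at -5.85 ± 1.51, adjusted p = 7.6e-04, with a range from -7.20 to -5.25 when eYFP+ replicate 2 or 3 was left out. The difference of eYFP- macrophages from Ly6Chi monocytes was -1.51 ± 1.5, adjusted p = 0.532, although the libraries did not overlap, and it was called with the libraries of that comparison alone (-1.56, adjusted p = 4.8e-05). That of eYFP+ macrophages from Ly6Clo monocytes was 0.25 ± 1.53, adjusted p = 0.935. Over both groups of each cell type, macrophages against monocytes gave -0.63 ± 1.07, adjusted p = 0.707.

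Some genes of granulocyte-monocyte progenitors moved with Ms4a3. Their summed normalised counts (Mpo, Elane, Prtn3, Ctsg, Cebpe and Gfi1) were 336 to 2262 over the eYFP+ libraries and 8935 to 32832 over the eYFP- libraries, with 29775 to 47808 in Ly6Chi and 952 to 2122 in Ly6Clo monocytes. Between the macrophage groups 4 of the 6 were lower in eYFP+ cells and none higher, led by Prtn3 (-3.84 ± 0.51, adjusted p = 5.8e-11) and Mpo (-4.49 ± 0.73, adjusted p = 4.7e-07), which encode a protease and the peroxidase of azurophil granules. In Ly6Chi against Ly6Clo monocytes 4 of 6 were higher. In eYFP- macrophages against Ly6Clo monocytes the same 4 genes (Mpo, Elane, Prtn3 and Ctsg) were higher, while Cebpe and Gfi1 were lower (-2.38 and -5.32). Cebpe and Gfi1 were lower also in eYFP+ macrophages against Ly6Clo monocytes, where Ms4a3 did not pass the test. Without Ly6Clo replicate 2 the call of Gfi1 was lost in both comparisons (adjusted p = 0.845 for eYFP- and 0.706 for eYFP+) and that of Cebpe for eYFP- macrophages (adjusted p = 0.244). All 6 were lower in eYFP+ macrophages than in Ly6Chi monocytes, and 3 of 6 in eYFP- macrophages. In macrophages against monocytes 2 of 6 were lower and none higher. The 3 genes whose pattern over the 12 libraries was most like that of Ms4a3 were Prtn3 (r = 0.985), Elane (r = 0.967), Mpo (r = 0.962), all 3 from that list, in a correlation of log2(TPM + 1) in which every point shares its library with the gene compared. None of the 6 genes was at 0 in all libraries of a group. The part of progenitor RNA in the Ms4a3 values was not tested.

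**Figure D4:**
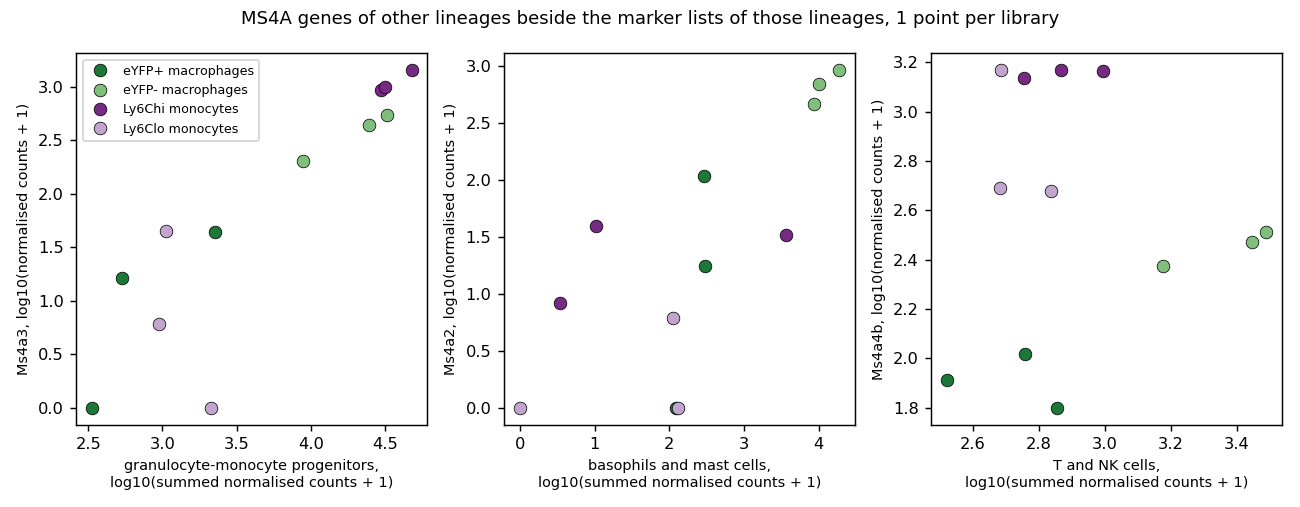
Normalised counts of Ms4a3, Ms4a2 and Ms4a4b (vertical axes, log10 of the value plus 1) against the summed normalised counts of the marker genes of progenitors, of basophils and mast cells, and of T and NK cells (horizontal axes, same scale), 1 point for each of the 12 libraries. Ms4a3 and the progenitor genes are both higher in Ly6Chi monocytes and eYFP- macrophages than in the other groups. Ms4a2 is highest in the 3 eYFP- macrophage libraries. Ms4a4b is highest in monocytes, and among macrophages both it and the T and NK cell counts are higher in the eYFP- libraries.

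The 9 genes made up a different mix in each cell type, and their sum was highest in Ly6Chi monocytes. The summed level was 3131 ± 383 TPM in Ly6Chi monocytes and 1743 ± 575 in Ly6Clo monocytes (mean ± SD, n = 3). It was 977 ± 398 TPM in eYFP+ and 775 ± 129.6 TPM in eYFP- macrophages. The ranges were 2894 to 3573, 1262 to 2379.5, 723 to 1437 and 663 to 917 TPM in that order, so Ly6Chi monocytes stood above every other library and the lowest Ly6Clo library lay below the highest eYFP+ library, replicate 1. No test was made of these sums. In macrophages Ms4a7 took 57.7% ± 2.95 (eYFP+) and 56.4% ± 4.4 (eYFP-) of the sum, and Ms4a6d 23.9% ± 0.241 and 18.1% ± 1.02. In Ly6Chi monocytes the largest shares were those of Ms4a4c (29.6% ± 2.67), Ms4a4a (19.4% ± 2.52) and Ms4a6b (17.7% ± 0.660), and Ms4a7 took 0.488% ± 0.0873. In Ly6Clo monocytes they were Ms4a4a (31.2% ± 9.08), Ms4a6c (21.9% ± 3.84) and Ms4a6b (17.8% ± 0.459). The share of Ms4a6b was nearly the same in both monocyte groups, and that of Ms4a8a was 8.29% ± 1.53 in Ly6Chi and 0.705% ± 0.503 in Ly6Clo monocytes.

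**Figure D5:**
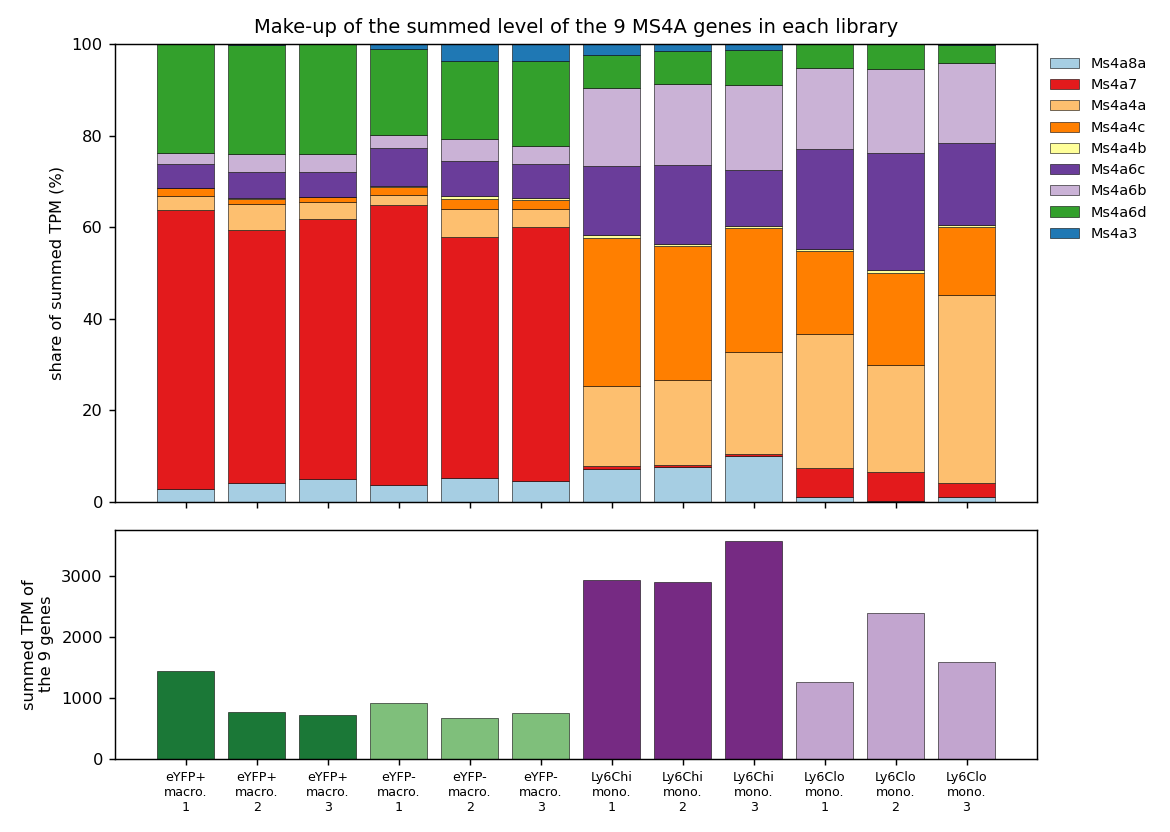
Upper panel, share (%) of each member in the summed TPM of the 9 genes, 1 bar per library. Lower panel, that sum in TPM, coloured by group. Ms4a7 fills the largest part of each macrophage bar and is a thin band in Ly6Chi monocytes, where the sum is highest.

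Outside the 9 members, 14 further genes of the family were found (12 MS4A genes and the MS4A-like Tmem176a and Tmem176b), and 9 of them stayed under 1 TPM in every library. Ms4a1 was among these, with a highest value of 0.951 TPM and no count in 7 of 12 libraries, and Ms4a10 had no count at all. In macrophages against monocytes 7 of the 14 genes were tested, and 2 were higher and 1 lower. Ms4a14, the neighbour of Ms4a7, was at 15.4, 10.6 and 15.4 TPM in eYFP+, 5.17, 10.1 and 6.43 TPM in eYFP- macrophages, 0.226, 0.318 and 0.245 TPM in Ly6Chi and 1.04, 2.02 and 0.408 TPM in Ly6Clo monocytes. Like Ms4a7 it was higher in macrophages (4.06 ± 0.37, adjusted p = 8.4e-26) and lower in Ly6Chi than in Ly6Clo monocytes (-2.15 ± 0.55, adjusted p = 0.0024), without overlap of libraries in either comparison. The latter difference was -1.41 (adjusted p = 0.027) without Ly6Clo replicate 2.

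Ms4a2, the IgE receptor chain, and Ms4a4d also differed between groups. Ms4a2 was at 9.27, 16.7 and 19.8 TPM in eYFP- macrophages and at 0.318, 2.37 and 0 TPM in eYFP+ macrophages, again without overlap, and at most 0.770 TPM in monocytes. It was higher in macrophages than in monocytes (4.67 ± 1.22, adjusted p = 6.3e-04), and the test of origin gave -4.06 ± 1.66, adjusted p = 0.296. By library, eYFP- macrophages lay above all monocytes, while eYFP+ macrophages overlapped both monocyte groups. Its values stood beside a sum of 8667 to 18717 normalised counts of 5 basophil and mast cell genes in eYFP- macrophages, against 124 to 301 in eYFP+ macrophages, 2.43 to 3627 in Ly6Chi and 0 to 129 in Ly6Clo monocytes. Of these genes the basophil protease Mcpt8 passed the test of origin (-10.42 ± 1.86, adjusted p = 9.1e-06). The part of such cells in the Ms4a2 values was not tested. Ms4a4d was called lower in eYFP+ macrophages (-3.17 ± 0.71, adjusted p = 0.0013) at a level of 0.0314, 0.265 and 0.135 TPM against 0.865, 0.938 and 2.07 TPM in eYFP- macrophages. It was at 1.01, 1.24 and 0.696 TPM in Ly6Chi and 0.778, 0.973 and 0.709 TPM in Ly6Clo monocytes. Averaged over both groups of each cell type it was called lower in macrophages (-1.18 ± 0.48, adjusted p = 0.039; 0.064 without Ly6Clo replicate 2 and 0.104 without eYFP+ replicate 1), but only eYFP+ macrophages were called lower than Ly6Chi (-2.90 ± 0.72, adjusted p = 4.3e-04) and Ly6Clo monocytes (-2.63 ± 0.72, adjusted p = 0.0019). The differences of eYFP- macrophages were 0.28 ± 0.62 and 0.54 ± 0.62, with adjusted p-values of 0.813 and 0.579.

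Tmem176b and Tmem176a were present in every library. Tmem176b ran from 292 to 612 TPM and Tmem176a from 83 to 213 TPM over the 12 libraries. Neither was called in the comparisons of cell type, monocyte group or origin. Both were called higher in eYFP+ macrophages than in Ly6Chi monocytes (Tmem176a 0.66 ± 0.26, adjusted p = 0.045; Tmem176b 0.64 ± 0.22, adjusted p = 0.015), calls that were lost without eYFP+ replicate 1 (adjusted p = 0.199 and 0.066). Of the first 3 comparisons the nearest was Tmem176a between the monocyte groups, at -0.75 ± 0.26, adjusted p = 0.0504.

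A list of 8 genes whose products have been described with MS4A proteins was read alongside. In macrophages against monocytes 3 were higher and 2 lower. Trem2, the lipid receptor of macrophages, was higher (1.20 ± 0.22, adjusted p = 5.1e-07), as were the cell cycle genes Cdk2 (0.57 ± 0.16, adjusted p = 0.0016) and Cdkn3 (1.12 ± 0.46, adjusted p = 0.042). The call of Cdkn3 was lost without Ly6Clo replicate 2 (adjusted p = 0.078) or eYFP+ replicate 1 (0.254). The adaptor Tyrobp was lower together with Clec7a (-0.60 ± 0.24, adjusted p = 0.035). Between the macrophage groups Kit, the stem cell factor receptor, was lower in eYFP+ cells (-2.69 ± 0.69, adjusted p = 0.0084), with overlap of the libraries and with an adjusted p of 0.067 without eYFP+ replicate 1, and Trem2 just missed the threshold (1.01 ± 0.31, adjusted p = 0.055). Tnfrsf18 (GITR), described as a partner of Ms4a4b in T cells, was lower in Ly6Chi than in Ly6Clo monocytes (-1.93 ± 0.63, adjusted p = 0.029), a call that was lost without Ly6Clo replicate 2 (-1.15, adjusted p = 0.257) and with edgeR (adjusted p = 0.128). It ran from 1.76 to 17.2 TPM over all libraries. Fcer1g, the last gene of the list, ran from 4240 to 7635 TPM. It was not called in the comparisons of cell type, monocyte group or origin.

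The genes most like each member were sought among 13927 genes with a symbol and a mean of at least 1 TPM, by Pearson's r of log2(TPM + 1) over the 12 libraries, which form 4 groups and are not independent points. For Ms4a7 they were Gm15523 (r = 0.995), Lgmn (r = 0.995), Cd81 (r = 0.995). Lgmn encodes a lysosomal protease and Cd81 a tetraspanin. For Ms4a4c they were Ms4a6b (r = 0.990), Lyz2 (r = 0.988), Rnd3 (r = 0.987), and for Ms4a6b Samhd1 (r = 0.994), E230016K23Rik (r = 0.991), Ms4a4c (r = 0.990), so that Ms4a4c and Ms4a6b were among the nearest genes of each other. Lyz2 encodes lysozyme. For Ms4a4a they were Gpr183 (r = 0.990), Gm16282 (r = 0.986), Smpdl3a (r = 0.985). For Ms4a6c they were Tmcc1 (r = 0.989), Gng10 (r = 0.987), Ncf4 (r = 0.985). The most like genes of Ms4a4b were Cebpe (r = 0.976), Cd69 (r = 0.975), Rabgap1l (r = 0.971), and those of Ms4a8a Anxa7 (r = 0.960), Ikbke (r = 0.960), Ptgr1 (r = 0.960). Ms4a6d had the lowest values after its first gene: Anxa4 (r = 0.963), Ifi207 (r = 0.932), Npc2 (r = 0.928). Close copies were thus not always the nearest in pattern, since Ms4a4b was not among the 3 of Ms4a4c, nor Ms4a6c among those of Ms4a6b.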

How the data were processed

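Full-length cDNA of the sorted cells was amplified and sequenced from both ends. By the published methods, the authors cleaned the reads of adapters and ribosomal RNA, aligned them to GRCm39 with segemehl and deposited counts, whole numbers of unambiguously assigned read pairs per Ensembl gene from featureCounts (per the labels, bcl2fastq 2.20.0.422 made the reads). The authors deposited TPM values as well, scaled by gene length and library. Another deposited table of transformed counts was not used. Whether strand was used in counting is not stated. Without strand, Ms4a4c, Ms4a6c and Ms4a6b cannot be told apart from genes annotated on their opposite strand (Gm5692, BE692007 and Gm19261). Reads carry no molecular identifiers, so a count of 0 with its limit of 3 counts covers counting error only.

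Counts of 12 libraries were fitted once with DESeq2 1.42.0 in R 4.3.3 (group as factor, Wald tests, independent filtering at 0.05, Benjamini-Hochberg adjusted p under 0.05) for 7 comparisons, which share groups and hence libraries. Normalised counts are counts divided by median-of-ratios size factors. The fit was tested on simulated counts. Alternatives were edgeR 4.0.16, other scalings and filters, a GC correction, the replicate number as a block, limma 3.58.1 on log2(TPM + 1) or log2(TPM + 0.1), and leaving out libraries; the fit without 2 libraries was chosen after seeing the data. Symbols came from GENCODE M21 and matched 91.4% of the identifiers. All 9 members are named whatever their values, as are other family genes and partners, and of each further list up to 3 genes of lowest adjusted p; the T and NK cell genes, Ccr2 and the rest of the progenitor genes were named after their values were seen. A marker gene of the lists is not reported here. The members and lists were chosen with earlier results of these data known. The titles number the replicates, but nothing says that they came from separate mice, so p-values measure the spread between these libraries.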

Additional observations from a re-analysis of the deposited data

How the results depend on the processing

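Of the 7 comparisons, 5 kept their number of called members within 1.5 times in every alternative run. Between eYFP+ and eYFP- macrophages 1 member was called; edgeR called 0 and limma on log2(TPM + 0.1) called 0 (each with 2 members at an unadjusted p under 0.05), a minimum of 10 counts in 3 libraries gave 2, leaving out Ly6Clo replicate 2 and eYFP+ replicate 1 together gave 2, and leaving out 1 library gave 0 to 2. The member called was Ms4a3 in place of Ms4a4b under limma on log2(TPM + 1), with and without a filter on low values. Between Ly6Chi and Ly6Clo monocytes 5 were called; edgeR called 3, the fit without both libraries 8, and leaving out 1 library 3 to 7, the 7 without Ly6Clo replicate 2. The 3 calls of edgeR were Ms4a8a, Ms4a7 and Ms4a3. The GC correction called 7 there, with Ms4a4b at 1.17 and Ms4a6b at 1.06. Over all genes it called 2024, against 1870 without the correction. Only differences that had missed the threshold changed sign. With the GC correction Ms4a6b between the macrophage groups came to -0.054 (-0.045 with the replicate block as well), and without both libraries Ms4a6b came to -0.063, Ms4a7 to -0.14 and Ms4a8a to -0.043 there, and Ms4a3 in eYFP+ macrophages against Ly6Clo monocytes to -0.23. Without both libraries Ms4a4c and Ms4a6c between the macrophage groups kept their sign, at -0.95 (called) and -0.59. Leaving out 1 library moved the log2 difference between the macrophage groups within -0.94 to 0.26 for Ms4a4c, -0.055 to 0.26 for Ms4a6b, -0.58 to 0.13 for Ms4a6c, -0.14 to 0.73 for Ms4a7 and -0.035 to 0.21 for Ms4a8a. Between the monocyte groups the range was -0.015 to 0.40 for Ms4a4a and -0.022 to 0.75 for Ms4a6c. It was -1.31 to 0.64 for Ms4a3 in macrophages against monocytes, -0.53 to 0.18 for Ms4a6d in eYFP+ macrophages against Ly6Chi monocytes and -1.11 to 2.80 for Ms4a3 in eYFP+ macrophages against Ly6Clo monocytes. Ms4a3 between the macrophage groups passed under limma on log2(TPM + 1) (adjusted p = 0.0065) and under the count minimum (0.018), and without eYFP+ replicate 2 or 3 or Ly6Clo replicate 2 or 3; the cause was not tested. Over all genes, 439 were called between the macrophage groups, and edgeR called 64, limma 175 and 220 (on log2(TPM + 0.1), and without a filter), the 6 macrophage libraries alone 676, the fit without both libraries 995, and leaving out 1 library 228 to 873. Between the monocyte groups 1870 genes were called, and edgeR called 829, limma 969 to 1219, the 6 monocyte libraries alone 1189, and leaving out 1 library gave 1208 (without Ly6Chi replicate 2) to 2496 (without Ly6Clo replicate 1). Against Ly6Clo monocytes eYFP+ macrophages had 5760 calls, and 3694 in the libraries of that comparison alone; eYFP- macrophages against Ly6Chi monocytes had 5621, and 8623 without both libraries. Total-count scaling moved the median log2 difference of all genes between the macrophage groups from 0.05 to -0.06. Whether same-numbered libraries came from the same mouse is not given in the sources used here. The sample numbers in the column labels run in consecutive sets, each with the same replicate of every group. A link within these sets is thus possible. Same-numbered eYFP+ and eYFP- libraries correlated in their deviations by 0.059 to 0.297, not all above 0.1, and the main fit treated the numbers as names. Of the 6 macrophage libraries 4 correlated best with their own number. With the replicate block 1156 genes and 1 member were called between the macrophage groups, and 4 members between the monocyte groups, without Ms4a4c (adjusted p = 0.062). Ms4a3 had at most 45 counts in eYFP+ and Ly6Clo libraries.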
